A study of Homo sapiens with 6 samples.

Results

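The genes described here carry symbols of the ZNF series, the largest named family of zinc finger genes, and were expressed throughout the experiment. A gene was a member when its symbol was ZNF followed by a number and at most 1 further letter, and when its FPKM was at least 2 in all 6 libraries. FPKM is a fragment count divided by the length of the transcript and by the size of the library. Of 17645 genes listed, 504 had such a symbol and 195 of these were members. The levels chose the members, so the levels are given as a description and were not tested. The study measured RNA in MDA-MB-231, a human cell line established from a triple negative breast cancer, 48 h after it had been transfected with control siRNA (siControl, 3 libraries) or with siRNA against RNF31 (siRNF31, 3 libraries). RNF31 encodes HOIP, the enzyme that joins ubiquitin into linear chains within the LUBAC complex. The labels name no further treatment or genotype, and both groups are of 1 cell line. They do not say that the 3 libraries of a group came from separate cultures, so p-values measure only the spread between these libraries.

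Most ZNF proteins bind DNA through tandem Cys2His2 zinc fingers, each of which contacts a few bases. A large class also carries a KRAB domain near the amino end. KRAB recruits TRIM28 (KAP1), which brings the histone methyltransferase SETDB1 and heterochromatin proteins to the bound site, and this class is known for silencing transposable elements. Many KRAB zinc finger genes lie in clusters on chromosome 19 that arose by tandem duplication. Other ZNF proteins have a SCAN domain, few fingers or none of the usual kind, and act in transcription, RNA processing or ribosome assembly.

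The targeted gene was measured at 11.34, 10.7 and 10.57 FPKM in the siControl libraries and 1.92, 2.12 and 1.86 in the siRNF31 libraries, and it fell (limma log2 fold change -2.001 ± 0.07 and adjusted p = 1.29e-07). The first principal component of the tested genes held 89.0% of the variance and the second 7.18%. The log2 values of each library were also set against the mean of the others in its group. Over the tested genes, the SD of these differences was largest for siRNF31 replicate 3 (0.187) and siControl replicate 1 (0.183). That of siControl replicate 3 came next (0.167). As a check of the line's label, VIM was between 3027 and 3771 FPKM, CDH1 and EPCAM were at or under 0.20 FPKM, and PGR was at or under 0.01. Of the other cell markers, all 5 fibroblast genes were expressed and their summed level ran from 1404 to 1450 FPKM in siControl and from 1107 to 1139 in siRNF31. Most of that sum is COL1A1, which was called lower with PDGFRB, DCN and LUM, while COL3A1 was called higher, from a mean of 204 to 328 FPKM. The 4 endothelial genes summed to 1.48 to 1.84 FPKM in siControl and 0.79 to 0.93 in siRNF31, with CDH5 at or under 0.01. The immune genes used here summed to 37.9 to 46.4 FPKM and 34.9 to 40.1 FPKM, nearly all from CD68, with PTPRC at or under 0.51. The part of these markers in the results below was not tested, and in RNA from whole cultures fewer cells of a kind and less RNA per cell cannot be told apart.

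After RNF31 knockdown the balance of the members lay toward higher levels. Of the 195 members, 93 rose, 31 fell and 71 were not called at a limma adjusted p below 0.05. Over all 11346 genes tested the share called higher was 26.6% and the share called lower 36.5%, against 47.7% and 15.9% of the members. Among the 9590 genes with FPKM of at least 2 in all 6 libraries the shares were 25.5% and 37.2%. The median log2 fold change, siRNF31 minus siControl on the log2(FPKM + 1) scale, was 0.18 over the members and -0.06 over all genes tested. The siRNF31 libraries lay wholly above the siControl libraries for 96 members and wholly below for 41, where the shares over all genes tested were 28.4% and 38.8%. Most changes were small. On the log2(FPKM + 1) scale 6 members rose and 1 fell by at least 2-fold, and over all genes tested the same calls took 3.53% and 4.31%. That scale understates the change of low genes: as ratios of mean FPKM, ZNF121 (2.22), ZNF559 (2.27), ZNF680 (2.28) and ZNF160 (2.06) also rose past 2-fold.

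**Figure D1:**
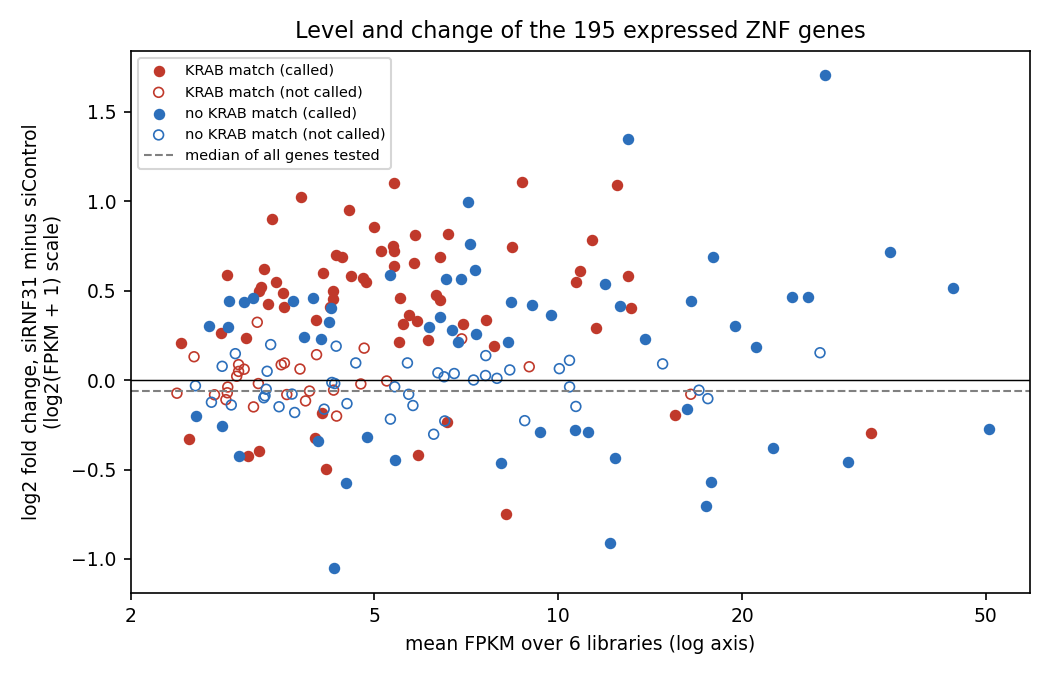
Each point is a member, with its mean FPKM over the 6 libraries on a log axis and its log2 fold change, siRNF31 minus siControl, on the vertical axis. Filled points were called by limma and the colour marks a KRAB match. ZNF703 stands at the top with 1.70 and ZNF318 at the bottom with -1.05, and the dashed line is the median of all genes tested, -0.06.

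Library by library, the 3 siControl medians over the members were 4.67, 5.02 and 4.64 FPKM, and the 3 siRNF31 medians were 5.89, 6.01 and 5.66. All 3 siRNF31 medians were above all 3 siControl medians. The median of all genes with FPKM of at least 2 in every library was 14.5 to 14.7 FPKM in the siControl libraries and 13.6 to 13.8 in the siRNF31 libraries. Summed over the members, the level was 1390.5 ± 15.8 FPKM (SD, n = 3, as for all means below) in siControl and 1608 ± 3.71 in siRNF31. The siControl libraries had 36, 35 and 35 members at or above 10 FPKM, against 44, 45 and 37 in the siRNF31 libraries. Mean levels ran from 2.38 FPKM for ZNF445 to 50.6 for ZNF593.

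Members with a KRAB match were mostly higher. Translated reading frames of GENCODE release 29 matched a KRAB letter pattern in 93 members, of which 54 rose, 11 fell and 28 were not called, with a median log2 fold change of 0.32. Of the 102 members without a match, 39 rose, 20 fell and 43 were not called, with a median of 0.05. The summed level of the KRAB group was 464 ± 9.57 FPKM in siControl and 588 ± 13.0 in siRNF31, and that of the others 926 ± 10.6 and 1020.1 ± 9.35. The pattern was widened after a narrower form, which matched 84 members, had missed known KRAB genes. With the narrower form 49 matched members rose and 9 fell. The wider form still leaves out some genes known to carry the domain, such as ZNF180.

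Chromosome 19 held 69 members, of which 43 rose (62.3%) and 7 fell (10.1%), against 26.6% and 36.5% over all genes tested. KRAB members on chromosome 19 numbered 46, and 32 of them rose and 3 fell, with a median log2 fold change of 0.43. The 47 KRAB members on other chromosomes had 22 higher, 8 lower and a median of 0.14. Without a KRAB match, the 23 members on chromosome 19 had 11 higher, 4 lower and a median of 0.15, and the 79 elsewhere had 28 higher, 16 lower and a median of 0.05. Chromosome 16 followed with 23 members, 6 higher and 5 lower, where the share higher is near that of all genes tested. Chromosome 7 held 17 members, 10 higher and 2 lower. All 6 members on chromosome 20 rose, among them ZNF335, whose groups overlapped and whose call did not hold without some libraries. Shares over all genes of each chromosome were not taken. A SCAN match was found in 16 members, of which 4 rose (25%, near the 26.6% over all genes tested) and 3 fell (18.8%).

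**Figure D2:**
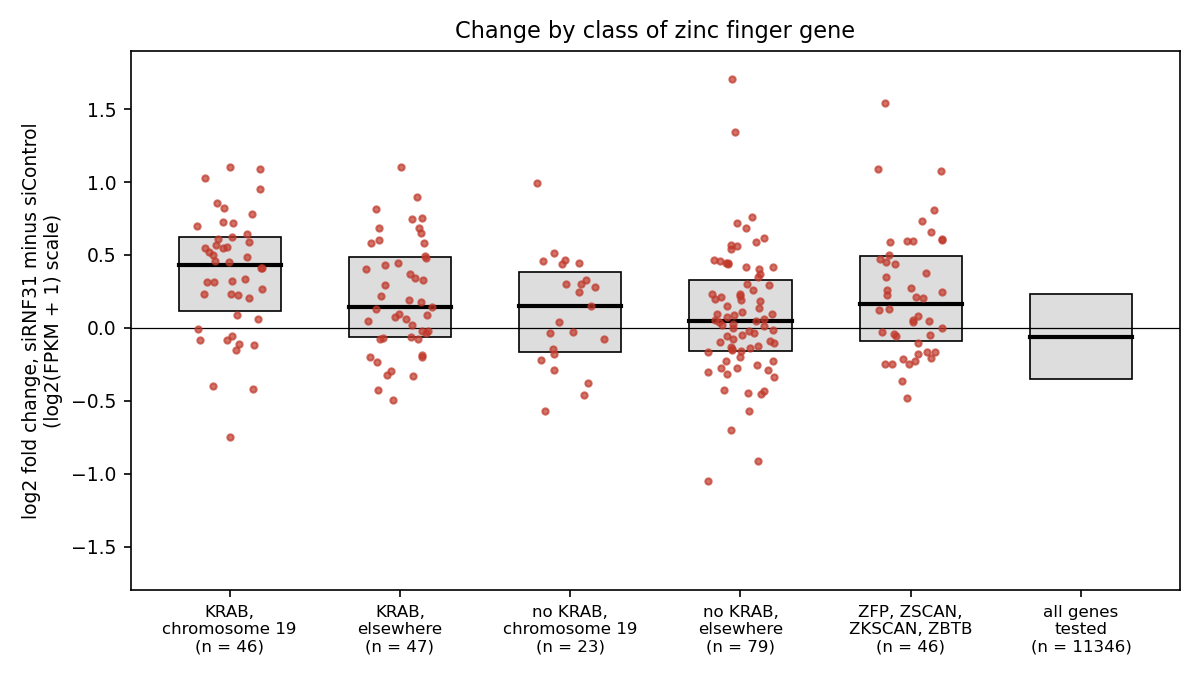
Log2 fold changes, siRNF31 minus siControl, of members by KRAB match and chromosome, beside other zinc finger genes and all genes tested. Points are genes, boxes span the middle of each list from the lower to the upper quartile and thick lines are medians: 0.43 for KRAB members on chromosome 19, 0.05 for members without a match elsewhere, and -0.06 for all genes tested.

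Grouped by finger number, the 44 members with 0 to 4 finger matches had 11 higher and 14 lower, with a median log2 fold change of -0.08. These shares, 25% and 31.8%, are near the 26.6% and 36.5% over all genes tested. With 5 to 9 fingers, 30 of 68 rose and 8 fell. With 10 to 14 fingers, 36 of 56 rose and 6 fell, and with 15 or more, 16 of 27 rose and 3 fell, with a median of 0.34. Transcript GC content differed between KRAB members and the others. The median GC was 44.9% in KRAB members, 51.5% in the others and 49.0% over all genes tested with a transcript. The 65 members of highest GC, from 52.5% to 71.1%, had 21 higher and 16 lower, the 65 in the middle 39 and 5, and the 65 of lowest GC 33 and 10. With a GC and length trend removed from every library, 98 members were higher and 39 lower, and over the 11285 genes with a transcript 3452 were higher and 4705 lower. Under that correction KRAB members had 55 higher and 13 lower and the others 43 and 26. By level, the 65 highest members had 33 higher and 15 lower, the 65 in the middle 37 and 7, and the 65 lowest 23 and 9.

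The largest KRAB rises were ZNF317, ZNF354A and ZNF274. ZNF317 was at 4.44, 5.8 and 5.3 FPKM in the siControl libraries and 11.93, 12.3 and 12.51 in the siRNF31 libraries, with no overlap between the groups (limma log2 fold change 1.11 ± 0.09 and adjusted p = 9.8e-06). ZNF354A, the human counterpart of the rat kidney repressor Kid-1, was at 3.1, 2.66 and 3.43 FPKM in the siControl libraries and 7.92, 7.84 and 7.36 in the siRNF31 libraries (limma log2 fold change 1.10 ± 0.08 and adjusted p = 7.77e-06). ZNF274 carries both KRAB and SCAN matches and is known to recruit SETDB1 to the 3′ ends of other zinc finger genes. It was at 7.62, 7.33 and 7.84 FPKM in the siControl libraries and 17.04, 17.83 and 17.03 in the siRNF31 libraries, a rise in every library over every control (limma log2 fold change 1.09 ± 0.06 and adjusted p = 1.06e-06). ZNF229 went from 2.15 ± 0.0929 to 5.43 ± 0.491 FPKM, ZNF559 from 2.78 ± 0.360 to 6.30 ± 0.378 FPKM, ZNF680 from 2.08 ± 0.0709 to 4.74 ± 0.192 FPKM and ZNF160 from 3.26 ± 0.305 to 6.73 ± 0.813 FPKM, with log2 fold changes from 0.86 to 1.02. Groups without overlap were a condition for naming the largest rises, so the lack of overlap in them is no further result. Reads of ZNF354A and ZNF559 may be split with other genes, since 20.7% and 13.3% of their 50-base windows also occur in transcripts of any other gene. The largest parts of these shares were with ZNF354B and with the ZNF559-ZNF177 read-through.

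Among members without a KRAB match, ZNF703 rose most of all 195. ZNF703 is a transcriptional co-repressor amplified in luminal breast cancer, and no finger of the usual spacing was found in it. It was at 12.61, 12.45 and 11.75 FPKM in the siControl libraries and 40.7, 40.88 and 45.21 in the siRNF31 libraries (limma log2 fold change 1.70 ± 0.06 and adjusted p = 1.75e-07). Every siRNF31 value was more than 3 times every siControl value. ZNF503, its closest relative, also had none of these fingers and went from 5.10 ± 0.251 to 8.02 ± 0.466 FPKM (adjusted p = 0.000128); it was named after its values were seen. ZNF664 was at 6.39, 6.87 and 7.48 FPKM in the siControl libraries and 20.27, 19.69 and 17.39 in the siRNF31 libraries (limma log2 fold change 1.35 ± 0.08 and adjusted p = 2.05e-06). ZNF121, a gene of 9 fingers on chromosome 19, went from 4.42 ± 0.127 to 9.80 ± 0.710 FPKM and did not overlap between the groups (limma log2 fold change 0.99 ± 0.07 and adjusted p = 5.13e-06).

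**Figure D3:**
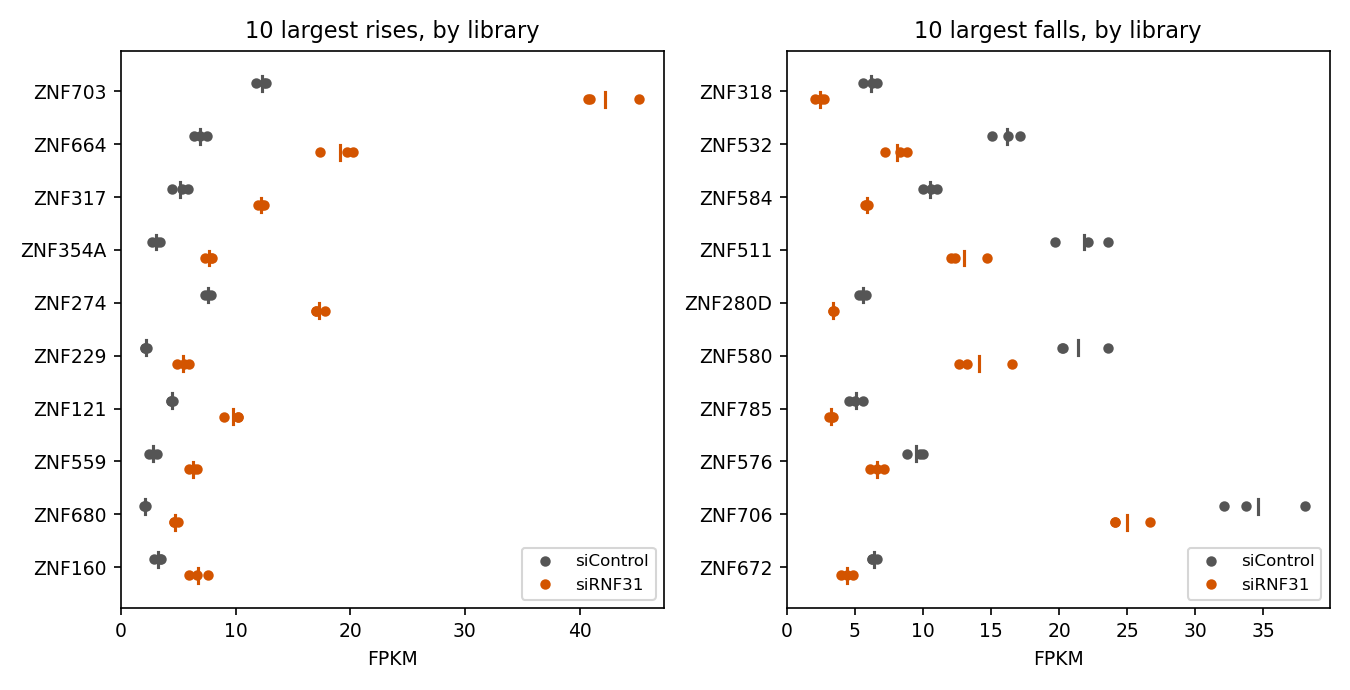
FPKM of the 10 members with the largest rises (left) and the 10 with the largest falls (right). Points are libraries, short vertical lines are group means, grey is siControl and orange siRNF31. The rule for naming them asked that the groups not overlap, as for ZNF703 at 11.75 to 12.61 against 40.7 to 45.21 and ZNF318 at 5.58 to 6.61 against 2.1 to 2.72.

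Falls were led by ZNF318, ZNF532 and ZNF584. ZNF318, a nuclear protein needed in mouse B cells for IgD expression, was at 5.58, 6.26 and 6.61 FPKM in the siControl libraries and 2.72, 2.54 and 2.1 in the siRNF31 libraries (limma log2 fold change -1.05 ± 0.09 and adjusted p = 1.87e-05). ZNF532 binds with ZMYND8, ZNF592 and ZNF687 in a chromatin complex, and was at 15.11, 16.25 and 17.15 FPKM in the siControl libraries and 8.81, 8.33 and 7.25 in the siRNF31 libraries (limma log2 fold change -0.91 ± 0.08 and adjusted p = 2.18e-05). Of its partners, named after their values were seen, ZNF592 went from 4.34 ± 0.161 to 4.27 ± 0.132 FPKM (adjusted p = 0.807) and ZNF687 from 4.43 ± 0.285 to 3.85 ± 0.180 FPKM (adjusted p = 0.0712). ZNF584, a KRAB gene at the end of chromosome 19, was at 11.03, 10 and 10.59 FPKM in the siControl libraries and 5.83, 5.77 and 5.99 in the siRNF31 libraries (limma log2 fold change -0.75 ± 0.06 and adjusted p = 1.33e-05). Further falls ran from -0.70 to -0.45 on the log2 scale and took in ZNF511, ZNF280D, ZNF580, ZNF785, ZNF576, ZNF706 and ZNF672. Of the 10 largest falls only ZNF584 and ZNF785 had a KRAB match, where 7 of the 10 largest rises had one. ZNF511 and ZNF532 share 23.5% and 11.1% of their windows with other transcripts.

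Promoter sequences of some members with large changes are shown, taken by rank of change. The printed KRAB promoters hold an element bound by ZNF143, itself a member. That element joined the search only after the promoters had been read, so its presence in these is no further result. The sequences are the 250 bases before the RefSeq start, GRCh38.p14, 5′ to 3′ on the gene's strand, for genes with 1 promoter entry. Genes were also left out by their location, among them ZNF703, which rose most. The genes that rose come before ZNF584 and ZNF318, which fell. Capitals mark matches to the searched motifs: GCATGCG (NRF1) on both strands in ZNF664, ACTACANNTCCC (ZNF143) in ZNF317, ZNF354A and, on the other strand, ZNF584, and CACGTG (E-box) and AAGATGG (YY1, on the other strand) in ZNF318. The regions are chr12:123972965-123973214 (plus strand), chr19:9140147-9140396 (plus strand), chr5:178730660-178730909 (minus strand), chr19:58408399-58408648 (plus strand) and chr6:43369648-43369897 (minus strand).
ZNF664: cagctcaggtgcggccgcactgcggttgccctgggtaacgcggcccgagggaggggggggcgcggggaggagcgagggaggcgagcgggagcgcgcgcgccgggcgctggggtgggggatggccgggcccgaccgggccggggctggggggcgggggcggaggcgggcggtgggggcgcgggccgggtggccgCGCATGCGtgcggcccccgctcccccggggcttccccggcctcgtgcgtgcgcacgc
ZNF317: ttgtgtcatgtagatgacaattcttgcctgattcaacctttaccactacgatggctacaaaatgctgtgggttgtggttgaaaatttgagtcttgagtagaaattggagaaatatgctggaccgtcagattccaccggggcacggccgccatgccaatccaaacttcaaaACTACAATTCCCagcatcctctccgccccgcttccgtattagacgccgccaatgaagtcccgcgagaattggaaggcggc
ZNF354A: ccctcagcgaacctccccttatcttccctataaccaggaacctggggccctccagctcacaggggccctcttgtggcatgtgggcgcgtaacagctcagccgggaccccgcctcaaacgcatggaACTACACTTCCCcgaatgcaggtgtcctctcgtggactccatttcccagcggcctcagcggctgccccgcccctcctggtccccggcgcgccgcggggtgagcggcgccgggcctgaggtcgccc
ZNF584: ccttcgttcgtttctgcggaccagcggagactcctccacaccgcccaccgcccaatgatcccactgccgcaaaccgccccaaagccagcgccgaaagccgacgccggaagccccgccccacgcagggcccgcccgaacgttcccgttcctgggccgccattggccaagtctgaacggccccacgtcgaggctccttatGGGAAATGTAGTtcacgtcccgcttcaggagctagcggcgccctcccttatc
ZNF318: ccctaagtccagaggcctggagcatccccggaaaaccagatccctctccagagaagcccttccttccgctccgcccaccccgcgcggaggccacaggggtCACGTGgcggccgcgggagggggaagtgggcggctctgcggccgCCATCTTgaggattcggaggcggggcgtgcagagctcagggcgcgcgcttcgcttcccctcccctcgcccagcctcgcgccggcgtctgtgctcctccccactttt
Each lies upstream of the transcription start and is not part of the transcript.

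Over the 219 promoter entries of 168 members, the ZNF143 element ACTACANNTCCC was present on either strand in 10.5%, against 1.67% of all 35116 entries. It was present in 15 of the 107 entries of members that rose (14.02%), in 2 of the 43 of members that fell (4.65%) and in 12 of the 104 of KRAB members (11.5%). TGACGTC, a cyclic AMP response element, was in 6.39% of member entries and 3.12% of all. GCATGCG was in 5.94% and 3.39%, with 5.61% of the entries of members that rose and 11.6% of those that fell. AAGATGG was in 3.20% and 3.70%, with 2 of 107 entries of members that rose (1.87%) and 5 of 43 of those that fell (11.6%). CACGTG was in 5.02% and 6.34%, and TGACTCA, the AP-1 site, in 3.65% and 4.20%. TGATGCA, an ATF4 element, was in 0.457% and 2.16%. Both strands were searched, and TGACGTC and TGACTCA begin with the same letters. The ZNF143 element was added after the promoters had been read, and a match describes letters, not binding. ZNF143, an activator of many housekeeping promoters, was at 4.91, 5.3 and 5.97 FPKM in the siControl libraries and 8.65, 8.11 and 8.6 in the siRNF31 libraries (limma log2 fold change 0.57 ± 0.08 and adjusted p = 0.000237).

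Members known as regulators of transcription moved both ways. ZNF217, amplified in breast cancer at 20q, was at 11.71, 13.76 and 16.03 FPKM in the siControl libraries and 21.26, 19.59 and 16.5 in the siRNF31 libraries, and its groups came close without overlapping (limma log2 fold change 0.44 ± 0.12 and adjusted p = 0.0117). ZNF281, a zinc finger factor tied to epithelial to mesenchymal transition, rose from 5.08 ± 0.757 to 9.29 ± 1.23 FPKM (limma log2 fold change 0.76 ± 0.12 and adjusted p = 0.00052). Its close relative ZNF148 was at 5.82, 7.33 and 7.88 FPKM in the siControl libraries and 6, 6.01 and 4.48 in the siRNF31 libraries, with overlapping groups, and was not called (limma log2 fold change -0.30 ± 0.13 and adjusted p = 0.0663). ZNF410, an activator of CHD4, rose from 17.3 ± 0.381 to 21.6 ± 1.36 FPKM (limma log2 fold change 0.30 ± 0.06 and adjusted p = 0.0025), but 83.5% of its windows also occur in transcripts of other genes. ZNF331, a KRAB gene, rose from 3.49 ± 0.0808 to 4.97 ± 0.189 FPKM. ZNF24, a SCAN protein, fell from 12.4 ± 0.990 to 9.97 ± 1.08 FPKM (adjusted p = 0.0196), and ZNF639 fell from 11.8 ± 0.580 to 9.56 ± 0.968 FPKM (adjusted p = 0.0145). ZNF335, part of histone methyltransferase complexes, was called higher, from 6.27 ± 0.437 to 7.45 ± 0.664 FPKM, with overlapping groups (adjusted p = 0.0429). Not called were ZNF384 from 17.3 ± 1.23 to 16.6 ± 1.21 FPKM (adjusted p = 0.531), ZNF395 from 3.45 ± 0.284 to 3.15 ± 0.185 FPKM (adjusted p = 0.281), ZNF22 from 18.2 ± 0.461 to 16.9 ± 0.305 FPKM (adjusted p = 0.112) and ZNF267 from 4.45 ± 0.249 to 5.17 ± 0.291 FPKM (adjusted p = 0.0503). ZNF91, ZNF93, ZNF165, ZNF423 and ZNF750 did not meet the level rule.

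Leaving out a library ended several of these calls. The call of ZNF335 was lost when siControl replicate 2 (adjusted p = 0.148), siControl replicate 3 (0.0933), siRNF31 replicate 2 (0.132) or siRNF31 replicate 3 (0.112) was left out, that of ZNF24 without siControl replicate 3 (0.0642) and that of ZNF639 without siControl replicate 2 (0.0642). Without siControl replicate 1, ZNF148 was called lower (adjusted p = 0.0142, log2 fold change -0.41), and without siRNF31 replicate 3, ZNF267 was called higher (adjusted p = 0.0407).

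Of the members with roles in ribosome assembly and RNA, ZNF593 and ZNF622 were among the 5 with the highest mean level. ZNF593, whose yeast counterpart Bud20 works in large ribosomal subunit assembly, had the highest mean and was at 59.17, 56.23 and 51.17 FPKM in the siControl libraries and 43.52, 46.55 and 47.15 in the siRNF31 libraries, a fall without overlap (limma log2 fold change -0.27 ± 0.07 and adjusted p = 0.00711). ZNF622, whose yeast counterpart Rei1 acts in the late steps of that assembly, was at 28.62, 25.77 and 24.07 FPKM in the siControl libraries and 42.96, 40.53 and 47.5 in the siRNF31 libraries, a rise (limma log2 fold change 0.72 ± 0.08 and adjusted p = 8.75e-05). These 2 genes thus moved in opposite directions. ZNF598, the ubiquitin ligase that marks collided ribosomes, rose from 19.6 ± 0.987 to 22.4 ± 0.934 FPKM (limma log2 fold change 0.19 ± 0.06 and adjusted p = 0.024). ZNF346, which binds double-stranded RNA, went from 9.80 ± 1.47 to 10.3 ± 1.29 FPKM (adjusted p = 0.653) and was not called. ZNF326, a part of the DBIRD complex that links transcription and splicing, fell from 5.50 ± 0.717 to 4.22 ± 0.661 FPKM (limma log2 fold change -0.32 ± 0.12 and adjusted p = 0.0385). ZNF638, a nuclear protein that takes part in silencing unintegrated retroviral DNA, fell from 14.4 ± 1.18 to 10.4 ± 1.35 FPKM (limma log2 fold change -0.44 ± 0.10 and adjusted p = 0.00458).

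ZNF473, a component of histone pre-mRNA 3′ end processing, rose from 3.83 ± 0.240 to 6.94 ± 0.276 FPKM (adjusted p = 2.98e-05) and was named after its values were seen. ZNF207 (BuGZ), which binds BUB3 and helps chromosomes align, fell from 17.2 ± 0.216 to 15.3 ± 0.172 FPKM (limma log2 fold change -0.16 ± 0.05 and adjusted p = 0.0209). ZNF451, a SUMO ligase, went from 9.57 ± 1.40 to 8.05 ± 1.40 FPKM (adjusted p = 0.165) and was not called. The other most abundant members were ZNF146, made almost only of fingers, which rose from 36.2 ± 1.36 to 52.1 ± 2.00 FPKM, ZNF655, which fell from 35.8 ± 0.397 to 29.03 ± 0.845 FPKM, and ZNF706, which fell from 34.6 ± 3.09 to 24.96 ± 1.46 FPKM. ZNF598 lost its call without siControl replicate 2 (adjusted p = 0.0674), siControl replicate 3 (0.0777) or siRNF31 replicate 3 (0.0631), and ZNF207 without siControl replicate 2 or siRNF31 replicate 1 or 2 (0.0820, 0.0738 and 0.0673). For ZNF326 the same held of siControl replicate 2 (0.0999) and replicate 3 (0.119), and of siRNF31 replicate 2 (0.0560) and replicate 3 (0.1001).

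On chromosome 19 the members were also read in runs of neighbours. Members separated by fewer than 10 other protein-coding genes were taken as a run, a rule set after the data had been seen. In the run from ZNF414 to ZNF562, 7 of 9 members rose and none fell, with ZNF317, ZNF121, ZNF559 and ZNF558 at log2 fold changes from 0.82 to 1.11. From ZNF576 to ZNF180, 7 of 10 rose and 2 fell, the falls being the adjoining ZNF576 and ZNF428. From ZNF264 to ZNF446, 12 of 16 rose and only ZNF584 fell, between ZNF544 at 0.55 and ZNF324 at -0.12. The run from ZNF628 to ZNF580 held no KRAB match, and 3 of its 6 members rose and 1 fell. Runs of 3 members were mixed: ZNF653, ZNF627 and ZNF700 were not called, and ZNF146, ZNF260 and ZNF529 all rose. In the run from ZNF66 to ZNF738, ZNF66 rose, ZNF85 fell and ZNF738 was not called. Runs shorter than these are not described. Over the 69 members on chromosome 19, 62.3% rose and 10.1% fell. Runs of other genes were not counted, and whether members of a run moved together was not tested.

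**Figure D4:**
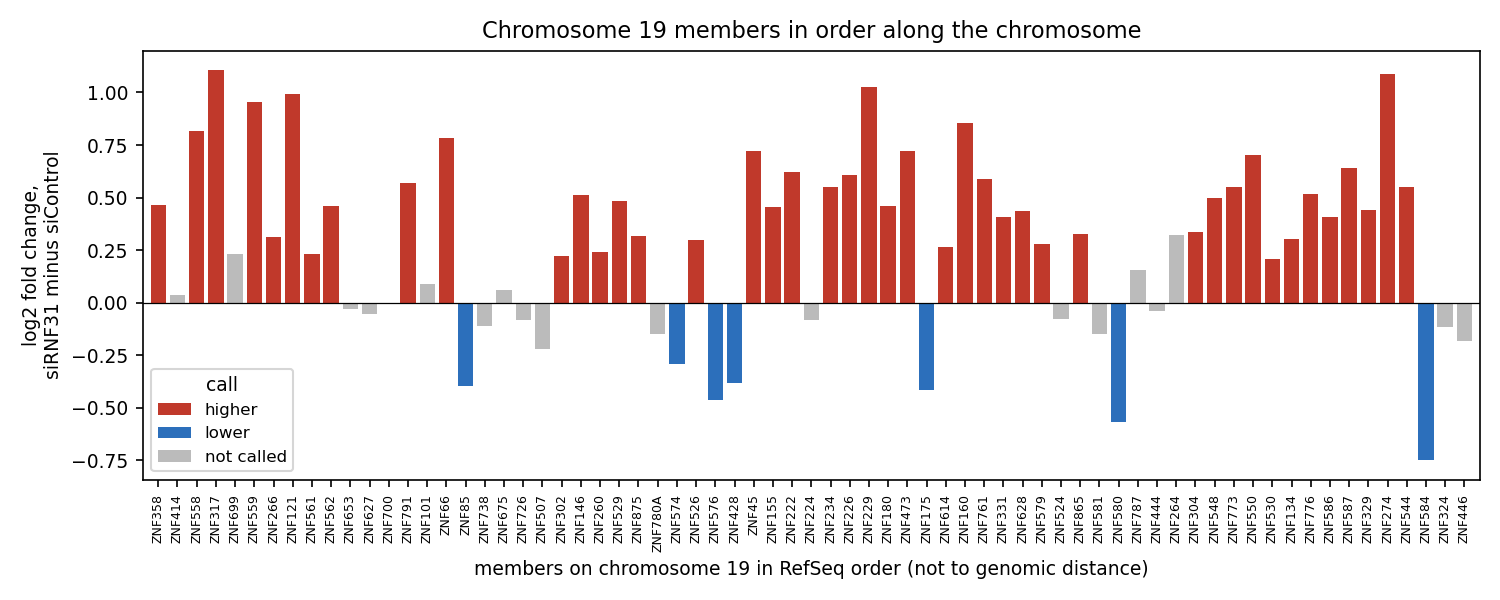
Log2 fold change, siRNF31 minus siControl, of the 69 members on chromosome 19 in RefSeq gene order, not drawn to genomic distance. Red bars were called higher (43), blue bars lower (7) and grey bars not called (19).

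Of 34 pairs of members that were direct neighbours among protein-coding genes, 16 lay on chromosome 19. In 12 pairs both genes rose, in 2 both fell and in 3 they were called in opposite directions. Of all 195 members, 47.7% were higher and 15.9% lower, and of those on chromosome 19, 62.3% and 10.1%. Neighbouring pairs over all genes were not counted, and whether neighbours moved together was not tested. The most alike were ZNF783 and ZNF777 on chromosome 7, at log2 fold changes of 0.50 and 0.45, and ZNF234 and ZNF226 on chromosome 19, at 0.55 and 0.61. The farthest apart were ZNF66 and ZNF85, at 0.78 and -0.40, and ZNF768 and ZNF747, at 0.69 and -0.43. ZNF66 was at 4.91, 9.4 and 10.03 FPKM in the siControl libraries and 17.05, 17.15 and 9.54 in the siRNF31 libraries (limma adjusted p = 0.0341). Its groups overlapped because siRNF31 replicate 3 lay under siControl replicate 3. Without the low siControl replicate 1 its log2 fold change was 0.50, against 0.78 with it. Its call was lost without siControl replicate 1, siRNF31 replicate 1 or siRNF31 replicate 2 (adjusted p = 0.0754, 0.110 and 0.106). ZNF747 shares 89.6% of its windows with transcripts of other genes.

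The level rule left out ZNF genes that crossed it. Just inside were ZNF680 and ZNF595, each with a lowest library at 2 FPKM, and ZNF653 at 2.02, and just outside were ZNF710 at 1.99, ZNF292 at 1.97 and ZNF775 at 1.96. Under 2 FPKM in all 6 libraries were 212 symbols, of which 1 was listed at 0 throughout, and 97 were at or above 2 in some libraries only. Of these 97, 29 were at or above 2 in every siRNF31 library and under 2 in every siControl library, and 3 the reverse. The same crossings were not counted over all genes listed, so these counts are not read as a trait of ZNF genes. ZNF184 went from 1.47 ± 0.181 to 5.65 ± 0.443 FPKM, ZNF616 from 0.437 ± 0.0551 to 2.49 ± 0.214 FPKM and ZNF468 from 0.780 ± 0.184 to 2.98 ± 0.132 FPKM. ZNF362 went from 6.07 ± 0.362 to 1.69 ± 0.201 FPKM, ZNF43 from 2.65 ± 0.0737 to 1.64 ± 0.156 FPKM and ZNF219 from 2.24 ± 0.0208 to 1.57 ± 0.300 FPKM. These crossings are part of the rule and were not tested as a group. Taking a mean of at least 2 FPKM instead gave 246 members, of which 129 rose and 34 fell. That mean also takes in genes that reach it only through the group where they are high, such as ZNF184 and ZNF362. Its counts are therefore no support for the balance of the members.

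Genes of the machinery that KRAB proteins recruit were called in both directions, at shares near those of all genes tested. Of 28 genes of the TRIM28 co-repressor, heterochromatin and HUSH complexes, 27 were tested, and 8 rose, 9 fell and 10 were not called, with a median log2 fold change of -0.03. The shares, 29.6% higher and 33.3% lower, stand beside 26.6% and 36.5% over all genes tested. TRIM28 was at 175.36, 160.78 and 160.36 FPKM in the siControl libraries and 193.85, 198.05 and 215.22 in the siRNF31 libraries (limma log2 fold change 0.29 ± 0.07 and adjusted p = 0.00472). SETDB1, the methyltransferase, went from 5.79 ± 1.00 to 5.42 ± 0.703 FPKM (adjusted p = 0.599) and was not called, while its partner ATF7IP rose from 5.83 ± 1.07 to 9.70 ± 1.29 FPKM (limma log2 fold change 0.65 ± 0.13 and adjusted p = 0.00217). Of the heterochromatin proteins, CBX1 rose from 64.8 ± 2.87 to 88.1 ± 3.99 FPKM, CBX3 fell from 179.9 ± 5.04 to 126 ± 4.47 FPKM and CBX5 went from 16.7 ± 1.40 to 14.6 ± 1.20 FPKM (adjusted p = 0.0899) without a call. In the NuRD deacetylase complex GATAD2A, MTA1 and HDAC1 rose, with log2 fold changes from 0.71 to 0.95, and MTA2, MTA3, CHD4, RBBP7 and HDAC2 fell, from -0.79 to -0.40. Of the HUSH-linked genes TASOR and MORC2 rose and PPHLN1 fell, and MPHOSPH8 was not called. CBX5 was called lower without siControl replicate 1 (adjusted p = 0.0427).

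Reads can be shared where transcripts of different annotated genes hold the same bases. In 29 members at least 10% of the 50-base windows of the longest coding transcript were also present in a transcript of another gene, and 14 of these rose and 4 fell. Of the 166 others, 79 rose and 27 fell. ZNF365 (100%), ZNF23 (98.1%), ZNF747 and ZNF410 shared most and were named for that after it was seen, and their levels are uncertain. Their main partners, in that order, were the entries AC024598.1, AC010547.4, AC002310.5 and AC005520.1, none of them under a ZNF symbol.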

How the data were processed

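RNA of 6 libraries was measured, 3 siControl and 3 siRNF31, grouped by the labels. Per the labels' protocols, RNA was taken with Trizol and libraries were made by BGISEQ-500 protocols. The authors deposited FPKM per gene, per the file headers, with 2 decimals. The aligner and quantifier, and the build and annotation, were not given in the sources used here. FPKM is relative and depends on the transcript model, and depth is unknown, so no counting interval is given.

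The 11346 genes that reached FPKM 1 in 3 or more libraries were compared on log2(FPKM + 1), which understates changes of low genes, with limma 3.58.1 (trend and robust moderation) in R 4.3.3. Two-sided p-values were adjusted by Benjamini-Hochberg over all genes tested, with calls below 0.05. The fit was tested on simulated data. The ± after a log2 fold change is its standard error. KRAB, SCAN and finger matches came from letter patterns on GENCODE release 29 reading frames, any isoform, in place of the RefSeq proteins the design named. Promoters, gene order and chromosomes came from RefSeq, GRCh38.p14, and tables were made in Python 3.11.15.

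Members, lists and the rule for named genes were chosen with earlier results of these data known. The rule took RNF31, the 10 largest rises and 10 largest falls without overlap between groups, the 5 highest members, the 3 just inside and outside the threshold, the 3 largest crossings each way, genes of known role, 6 co-repressor genes, and the most and least alike neighbours. The KRAB pattern, finger and GC groups, runs, the ZNF143 element and printed promoters were settled after values were seen. Alternatives were a pseudocount of 0.1, no filter, median of ratios scaling, limma without trend, the replicate block, other membership levels and leaving out libraries, and, chosen after seeing the data, a GC and length correction, leaving out siControl replicate 1 with siRNF31 replicate 3, other levels for the ZFP, ZSCAN, ZKSCAN and ZBTB genes, and a narrower KRAB pattern.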

Additional observations from a re-analysis of the deposited data

How the results depend on the processing

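Over the pseudocount, filter, scaling, trend and block alternatives the balance of members stayed toward higher levels, with 96 higher and 26 lower under median of ratios scaling and 97 and 35 without siControl replicate 1 and siRNF31 replicate 3 (9 of the ZFP, ZSCAN, ZKSCAN and ZBTB genes lower), where the filter was FPKM of at least 1 in at least 2 libraries. Leaving out each library in turn gave 79 to 90 members higher, 25 to 31 lower and a median log2 fold change of 0.14 to 0.17. For KRAB members the ranges were 48 to 55 and 8 to 10, for the others 31 to 37 and 16 to 22, for the co-repressor genes 7 to 8 and 8 to 10, and for the ZFP, ZSCAN, ZKSCAN and ZBTB genes 16 to 20 and 3 to 7. Deviations of same-numbered libraries from their group means had correlations of -0.568, 0.124 and -0.629. The correlation was 0.675 for siControl replicate 1 with siRNF31 replicate 3, and 0.542 for siControl replicate 3 with siRNF31 replicate 1. Deviations within a group depend on each other, so these values cannot settle whether libraries were paired. With the replicate block 77 members were higher, 23 lower and 2 of the ZFP, ZSCAN, ZKSCAN and ZBTB genes lower. The block also ended the calls of ZNF207, ZNF24, ZNF326, ZNF335, ZNF598 and ZNF66.

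The level that defines membership moved the counts, by construction. At least 1 FPKM in all 6 libraries gave 300 genes with 151 higher, 103 of them among 177 KRAB genes. At least 5 FPKM gave 74 genes with 34 higher, 16 lower and a median of 0.12, 11 and 4 among 18 KRAB genes, 23 and 12 among 56 others, and 7 and 4 among 19 ZFP, ZSCAN, ZKSCAN and ZBTB genes. A mean of at least 2 FPKM gave 246 genes with a median of 0.23 and 84 higher among 131 KRAB genes. Genes can reach that mean through only the group where they are high. Without the filter the median over all genes was 0.000441 on the log2 scale. Of 69 named genes, 51 kept call and direction in every alternative, 8 lost a call, 7 gained a call and 3 changed direction in at least 1. Those 3 were not called: ZNF653 was at 0.036 with the GC and length correction, and over the fits that left out a library it ran from -0.14 to 0.074, SETDB1 from -0.16 to 0.040 and ZNF346 from -0.047 to 0.15. The GC and length correction gave calls to CBX5, ZNF148, ZNF22, ZNF267, ZNF292 and ZNF451 and ended that of ZNF66 (the cause was not tested). Without a read count, the smallest change that depth could show is unknown.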

Other observations

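Of the other zinc finger genes with the same level rule, 46 with ZFP, ZSCAN, ZKSCAN or ZBTB symbols, 19 rose, 7 fell and 20 were not called, with a median log2 fold change of 0.17. The shares were 41.3% higher and 15.2% lower, against 26.6% and 36.5% of all genes tested. ZFP genes had 6 of 9 higher and none lower, ZSCAN genes 4 of 9 higher and 1 lower, ZKSCAN genes 2 of 3 higher, and ZBTB genes, which carry a BTB domain in place of KRAB, 7 of 25 higher (28.0%, near the share of all genes tested) and 6 lower (24.0%). ZFP36 rose from 7.22 ± 0.491 to 23.04 ± 2.76 FPKM. It is a CCCH protein that promotes mRNA decay and shares only its symbol with the others. ZBTB5 rose from 2.39 ± 0.0907 to 6.22 ± 0.302 FPKM and ZKSCAN5 from 4.21 ± 0.102 to 9.95 ± 0.0802 FPKM. ZFP91, a ubiquitin ligase, rose from 29.9 ± 3.63 to 50.3 ± 5.17 FPKM, and ZBTB17 (MIZ1), a partner of MYC, from 10.9 ± 0.891 to 15.3 ± 1.23 FPKM. ZBTB18, a repressor, fell from 7.54 ± 0.225 to 5.13 ± 0.639 FPKM. These genes were named after their values were seen.

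The 7-base sequence GCTACAC, which lies in the RNF31 mRNA and was singled out in an earlier search of these fold changes, occurs in an annotated 3′ UTR of 14 members. Of these 4 were higher, 2 lower (ZNF175 and ZNF280D) and 8 not called. The shares, 28.6% higher and 14.3% lower, stand beside 49.2% and 16.02% of the 181 members without it and 26.6% and 36.5% of all genes tested. The share higher is near that of all genes tested. Because the sequence was chosen with these same fold changes, the comparison cannot test an effect of it.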
